A study of Mus musculus with 12 samples.

Results

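The mitochondrial genome-encoded mRNAs of lung group-2 innate lymphoid cells (ILC2s) were taken as all listed genes whose symbol starts with mt-. The listed genes had been chosen by the false discovery rate of the authors' comparison of tdTomato+ with tdTomato- ILC2s and by an average log2 CPM over 5, so the members were selected on these measured values. The rule found 8 of the 3439 listed genes, namely mt-Nd1, mt-Nd2, mt-Nd3, mt-Nd4, mt-Nd5, mt-Nd6, mt-Co1 and mt-Cytb. The mouse mitochondrial chromosome carries 13 protein-coding genes, and the other 5, mt-Nd4l, mt-Co2, mt-Co3, mt-Atp6 and mt-Atp8, were not listed. All 8 members were among the 2906 genes that were listed as lower in tdTomato+ than in tdTomato- ILC2s, and 0 were among the 533 genes listed as higher. Of all listed genes, 84.5% were in the table of lower genes, and since that table chose the members, nothing is read from their direction.

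The cells came from lungs of male TIGIT-Cre-ERT2:Rosa26-LSL-tdTomato mice that were given papain, a protease allergen, together with tamoxifen, and were sorted on day 19. In these mice, tamoxifen lets a Cre recombinase made from the Tigit locus switch on the red protein tdTomato for good, so tdTomato+ ILC2s are cells that had expressed TIGIT, and tdTomato- ILC2s from mice of the same genotype and treatment were the controls. The labels hold 4 RNA-seq libraries of each population, made from small sorted pools with a stranded kit, and 2 ATAC-seq libraries of each population, which were not used here. The tables give each gene an average log2 CPM (counts scaled to the size of the library) pooled over both populations by the authors, and this pooled level is the quantity used throughout. They hold no value of a single library, so the depth of the libraries, the spread between replicates and the level in each population are unknown, and no difference between levels was tested. In such pooled material, fewer transcripts per cell and a smaller share of cells with the transcript cannot be told apart. Of the 8 ILC2 markers looked up (Gata3, Il1rl1, Thy1, Il7r, Il2ra, Klrg1, Rora and Id2), 8 were listed, all as lower. Their average log2 CPM ran from 6.47 (Klrg1) to 9.98 (Il1rl1). Of the 8 markers of T, NK, erythroid and epithelial cells and macrophages (Cd3e, Cd4, Cd8a, Ncr1, Adgre1, Itgax, Hba-a1 and Epcam), 0 were listed. By itself this does not tell a low level from a difference that missed the authors' limits. The paper reports low levels of lineage markers with no statistical difference between its samples, but its text does not name these markers.

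Mitochondrial DNA is a small circle that is transcribed from both strands as long precursors, which are then cut into mRNAs, rRNAs and tRNAs, mostly at the tRNAs that lie between the genes. All its mRNAs encode core subunits of the respiratory chain and ATP synthase, whose other subunits are encoded in the nucleus, so the output of both genomes has to be assembled together. Copies of mitochondrial DNA that moved into nuclear chromosomes are common in mammals, and a sequencing read from such a stretch can match both places.

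Most mitochondrial mRNAs were among the lower genes with the most counts. mt-Co1, the catalytic subunit of cytochrome c oxidase (complex IV), had an average log2 CPM of 12.13, the highest of the 2906 lower genes, and its 4489 CPM made up 38.2% of the summed level of the 8 members. mt-Cytb, the cytochrome b of complex III, had an average log2 CPM of 10.90. mt-Nd5, a proton-pumping subunit of NADH dehydrogenase (complex I), had 10.83. Together, mt-Co1, mt-Cytb and mt-Nd5 were 3 of the 10 lower genes with the most counts. mt-Nd1, mt-Nd4 and mt-Nd2, also membrane subunits of complex I, had average log2 CPM of 10.21, 9.93 and 9.69. mt-Nd6, the complex I subunit encoded on the opposite strand, had 8.94. mt-Nd3, a small subunit of complex I, stood far below the others with an average log2 CPM of 5.28, close to the lowest value among all listed genes, 5.00. Summed over the 8 members, the average level was 11736 CPM, which is 1.17% of all counts on the CPM scale and 2.24% of the summed level of all listed genes. The median average log2 CPM was 10.07 for the members and 6.39 for the lower genes as a whole.

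Because a longer gene collects more fragments, levels were compared between genes per kilobase of exon. Exonic lengths (union of all exons) were found for 3436 of the 3439 listed genes in GENCODE M21. The median level was 13.7 CPM per kb over the listed genes and 972 CPM per kb over the members, 70.9 times as high. By this measure mt-Co1 ranked 4, mt-Cytb 7, mt-Nd1 10, mt-Nd5 13, mt-Nd6 14, mt-Nd2 16 and mt-Nd4 21 among all listed genes, so that 7 of the 8 members were within the first 100. mt-Nd3 ranked 140, above 95.9% of the listed genes. Mitochondrial genes carry almost no untranslated sequence, whereas the union of exons of a nuclear gene can include parts that are little used, and this difference in length enters the comparison.

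**Figure D1:**
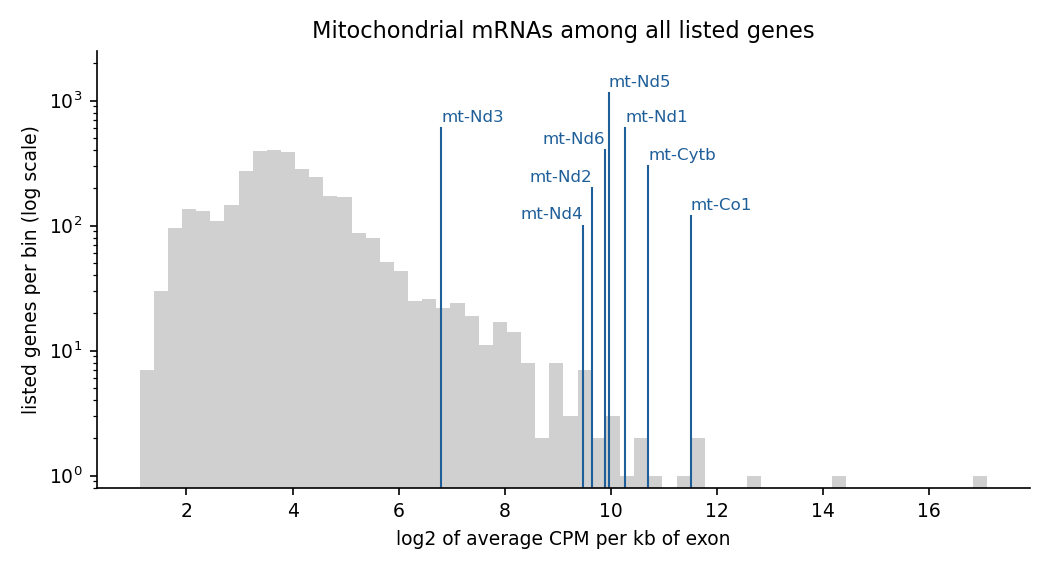
Histogram of the log2 of the average CPM per kb of exon for the 3436 listed genes with a length (grey, vertical axis on a log scale), with the 8 mitochondrial mRNAs as blue lines. 7 members lie in the upper tail, from mt-Nd4 at 710 CPM per kb to mt-Co1 at 2905, and mt-Nd3 lies apart at 111.

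Among themselves, the members spanned a 26.1-fold range per kilobase. mt-Co1 was the highest at 2905 CPM per kb and mt-Cytb followed at 1671, 1.74-fold lower. mt-Nd1 had 1237 CPM per kb, mt-Nd5 996, mt-Nd6 947, mt-Nd2 796 and mt-Nd4 710. Within this group of complex I subunits, mt-Nd5 and mt-Nd6, which adjoin each other on opposite strands, differed 1.05-fold. mt-Nd3 had 111 CPM per kb, which was 6.37-fold below mt-Nd4, the next lowest. Without mt-Nd3, the range of the other 7 was 4.09-fold. No spread between libraries is known, so it cannot be said which neighbours in this order differ beyond their error.

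In GRCm38, the protein-coding genes follow each other on the plus strand of the mitochondrial chromosome in the order mt-Nd1 (ENSMUSG00000064341, chrM:2751-3707), mt-Nd2 (ENSMUSG00000064345, chrM:3914-4951), mt-Co1 (ENSMUSG00000064351, chrM:5328-6872), mt-Co2 (chrM:7013-7696), mt-Atp8 (chrM:7766-7969), mt-Atp6 (chrM:7927-8607), mt-Co3 (chrM:8607-9390), mt-Nd3 (ENSMUSG00000064360, chrM:9459-9806), mt-Nd4l (chrM:9877-10173), mt-Nd4 (ENSMUSG00000064363, chrM:10167-11544), mt-Nd5 (ENSMUSG00000064367, chrM:11742-13565) and, beyond mt-Nd6, mt-Cytb (ENSMUSG00000064370, chrM:14145-15288). mt-Nd6 (ENSMUSG00000064368, chrM:13552-14070) lies on the minus strand. None of these genes has an intron. Of the 5 genes that were not listed, mt-Co2, mt-Atp8, mt-Atp6 and mt-Co3 form an unbroken run between mt-Co1 and mt-Nd3, and mt-Nd4l lies between mt-Nd3 and mt-Nd4. By complex, 6 of the 7 mitochondrial genes of complex I were listed, 1 of the 3 of complex IV (mt-Co1), the single gene of complex III and 0 of the 2 of ATP synthase. The genes not listed were 204 to 784 bases long, and the listed ones 348 to 1824, so both ranges overlapped. Only mt-Nd3 (348) and mt-Nd6 (519) made them overlap, and each other member, from mt-Nd1 (957) up, was longer than every gene not listed. Their GC contents also overlapped, at 31.9% to 41.1% for the genes not listed and 33.0% to 39.9% for the members.

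**Figure D2:**
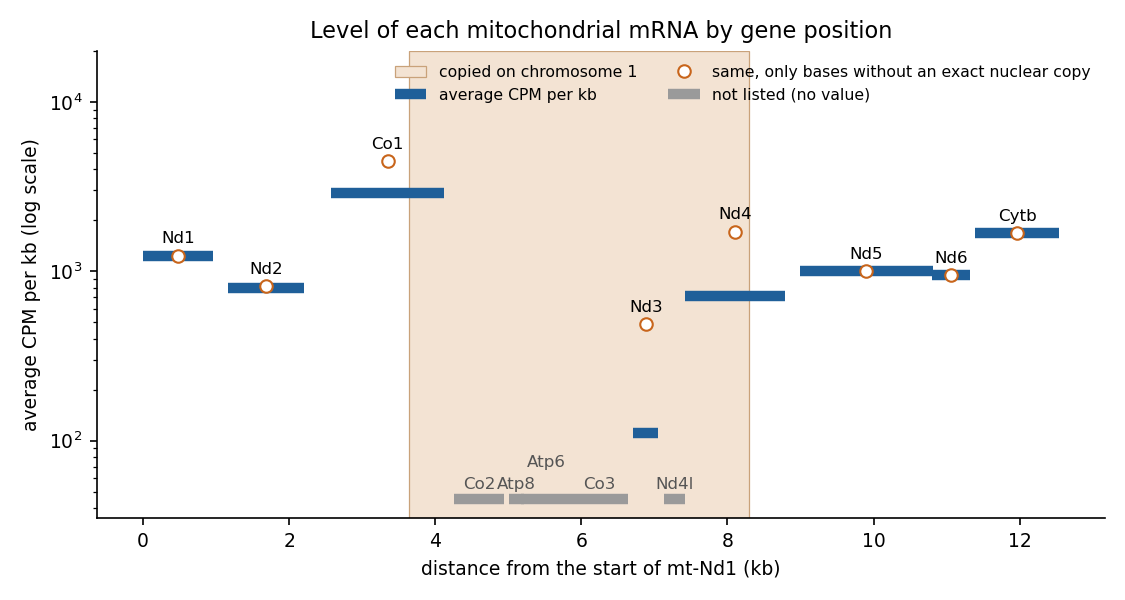
Average CPM per kb (vertical axis, log scale) of each member as a blue bar over its gene, against the distance from the start of mt-Nd1 in kb; open circles give the same level divided by the bases without an exact nuclear copy, grey bars are genes that were not listed and have no value, and shading marks the stretch copied on chromosome 1. All 5 genes not listed lie in the shaded stretch, with mt-Nd3 as the lowest member between them.

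The genes that were not listed share a feature of the reference sequence. A search of the nuclear chromosomes and unplaced sequences of GRCm38 found a nearly exact copy of chrM:6394-11042, 4649 bases, on the minus strand at chr1:24611535-24616184. Along this stretch the copy matched in 3 exact runs of 3067, 367 and 1222 bases, and it differed from the mitochondrial chromosome by 1 substitution and by 1 base in the length of a run of A. All 5 genes not listed lie wholly within it, and mt-Nd3 is the remaining gene that does. The members mt-Co1, with 479 of its 1545 bases, and mt-Nd4, with 876 of its 1378 bases, lie partly within it, and mt-Nd1, mt-Nd2, mt-Nd5, mt-Nd6 and mt-Cytb lie outside it. GENCODE M21 annotates 7 unprocessed pseudogenes in the copy (Gm28439, Gm10222, Gm28438, Gm28437, Gm10925, Gm28661 and Gm29216), of which 0 were listed.

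The share of each gene with an exact nuclear copy was measured over windows of 100 bases, one starting at each base of the gene. The study's methods name paired-end reads, and the windows do not model pairs, so a share of windows is not a share of reads. It was 100% for mt-Co2, mt-Atp8, mt-Atp6 and mt-Nd4l and 96.3% for mt-Co3. It was 77.0% for mt-Nd3, 58.6% for mt-Nd4, 35.3% for mt-Co1 and 2.89% for mt-Nd2. It was 0% for mt-Nd1, mt-Nd5, mt-Nd6 and mt-Cytb. The genes not listed were thus above the listed genes in this share, and the lowest member was the listed gene with the largest share. The gap between mt-Nd3 and the genes not listed depended on the windows, since its share was 91.4% with windows of 50 bases and 98.8% with windows of 100 bases that lie wholly inside the gene, against 100% for each gene not listed in both settings. With windows of 150 bases, the shares were 89.9% for mt-Co3, 62.6% for mt-Nd3 and 52.8% for mt-Nd4. The study's methods name STAR with standard input parameters, but the sources used here do not give whether reads that match several places were counted. For the RNA-seq the methods name GRCm39. They name mm10, the other name of GRCm38, for the ATAC-seq and for a reanalysis behind Venn diagrams, and the submitters' processing notes name mm10. The part of the nuclear copies in the listing was not tested.

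**Figure D3:**
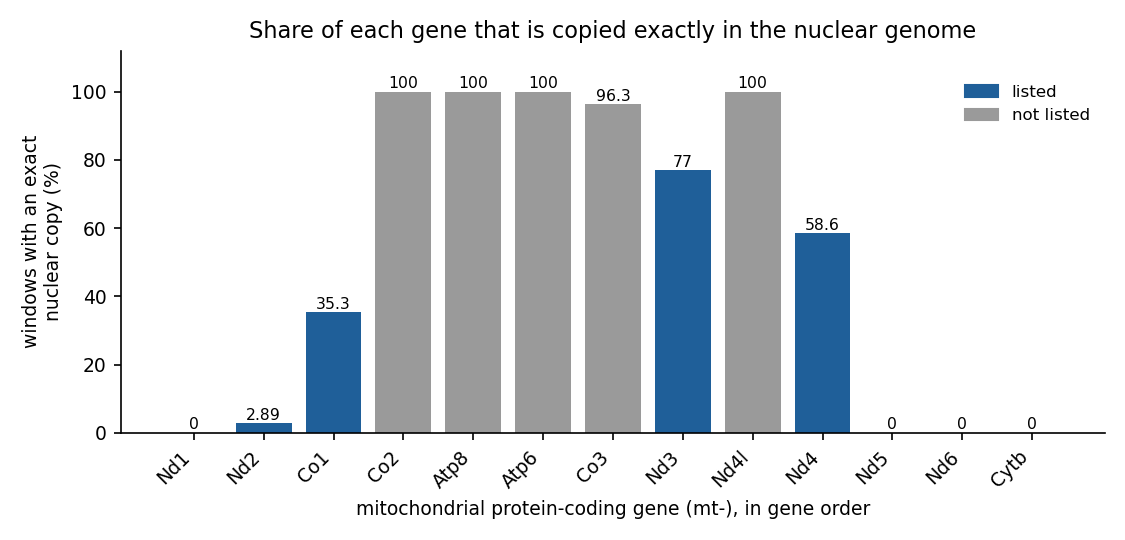
Percent of the 100-base windows starting in each mitochondrial protein-coding gene that have an exact copy in the nuclear part of GRCm38, with listed genes in blue and genes not listed in grey, in gene order. The genes not listed stand at 96.3% to 100%, and the members at 0% to 77.0%.

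The differences between mt-Nd3 and its copy are shown because the bases around them are what tells the nuclear and mitochondrial sequences apart. The first lies in the initiation codon of mt-Nd3. It is T9461C, with the mitochondrial base first, its position on the mitochondrial chromosome, and then the base of the copy on the same strand. In the lines here it is in capitals, with chrM:9447-9476 (plus strand) above chr1:24613102-24613131 (minus strand), both from GRCm38.
mt-Nd3 start, mitochondrial: cagaagagagtaatTaacctgtacactgtt
mt-Nd3 start, chromosome 1: cagaagagagtaatCaacctgtacactgtt
The second lies in the tRNA gene that follows mt-Nd3, where the capitals mark a run of 8 A within chrM:9811-9838 (plus strand) and of 9 A within chr1:24612739-24612767 (minus strand).
Run after mt-Nd3, mitochondrial: taattagtttAAAAAAAAttaatgattt
Run after mt-Nd3, chromosome 1: taattagtttAAAAAAAAAttaatgattt
Of the 348 windows of 100 bases that start in mt-Nd3, 80 hold one of these differences and thus had no exact nuclear copy. The substitution lies in 3 of them, and the other 77 run past the end of the gene into the tRNA gene.

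Dividing each level by the bases that start a window without an exact copy changed the order of the members. This measure treats a read as 1 window of 100 bases and takes reads that match several places as not counted. Neither is known to hold for these libraries. Windows that start before a gene and reach into it were left out, which matters for mt-Nd3 with its 80 windows. mt-Nd3 rose from 111 to 485 CPM per kb by this measure, mt-Nd4 from 710 to 1713 and mt-Co1 from 2905 to 4489, whereas mt-Nd1, mt-Nd5, mt-Nd6 and mt-Cytb kept their values and mt-Nd2 moved from 796 to 820. mt-Nd4 then stood above mt-Cytb as the second highest member, and mt-Nd3 remained the lowest, 1.69-fold below mt-Nd2. The range among the 8 members was 9.26-fold by this measure, against 26.1-fold over the whole length.

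The mitochondrial chromosome also carries 2 rRNA genes. These, mt-Rnr1 and mt-Rnr2, were not listed, and 0% and 1.14% of their windows had an exact nuclear copy. The 22 mitochondrial tRNA genes were also not listed. Of the 2906 lower genes, 2902 were annotated as protein-coding. No level is listed for the mitochondrial rRNAs and tRNAs, so how the levels of these RNAs compared is not known.

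Some mitochondrial genes overlap, and a read within the shared bases matches both genes, unless they lie on opposite strands and the counting used strand. mt-Nd4l and mt-Nd4 share 7 bases, mt-Atp8 and mt-Atp6 share 43, mt-Atp6 and mt-Co3 share 1, and mt-Nd5 and mt-Nd6 share 14 bases on opposite strands. The junctions that touch members are shown with the shared bases in capitals, both on the plus strand of GRCm38, at chrM:10156-10185 and chrM:13544-13573.
mt-Nd4l and mt-Nd4: aacctactacaATGCTAAaaattattcttc
mt-Nd5 and mt-Nd6: atactcaaTTAATCTCGAGTAAtctcgata
In the first, the start codon of mt-Nd4 lies before the stop codon of mt-Nd4l within the shared bases. In the second, both genes end, since they run towards each other. Whether the counting used strand is not given, so the level of mt-Nd6 cannot be told apart from that of the opposite strand's RNA over the same bases. Leaving the shared bases out of the lengths moved mt-Nd6 from 947 to 974 CPM per kb and mt-Nd5 from 996 to 1004.

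Per kilobase of exon, the listed nuclear genes of mitochondrial function stood below the members, far below 7 of them and 1.62-fold or more below mt-Nd3. Over all 21951 annotated protein-coding genes, 13.2% were listed as lower, the share beside which the counts here stand, and 84.5% of the listed genes were lower ones, so the counts are given as a description of these lists alone. Of 87 annotated symbols of nuclear-encoded respiratory chain and ATP synthase subunits, 35 were listed as lower and 0 as higher, with a median of 28.4 CPM per kb and a range from 10.7 to 68.9. The 3 of them with the highest average log2 CPM were Atp5a1 and Atp5b, the catalytic-head subunits of ATP synthase, with 64.0 and 46.1 CPM per kb, and Cox6c, a small subunit of complex IV, with 35.7. Each of the 35 was below mt-Nd3 per kilobase, whereas by average log2 CPM, with no regard to length, 27 of the 35 were above it. The order against mt-Nd3 thus depends on the length used. The union of exons was 3135 bases for Atp5a1, 4237 for Atp5b and 3567 for Cox6c, and it can include parts that are little used. A shorter length would raise their levels per kilobase. Their summed level was 2297 CPM, against 5336 CPM for the 6 listed mitochondrial subunits of complex I alone. Of 21 genes of protein import and quality control, 10 were listed as lower and 0 as higher (median 12.2 CPM per kb). The 3 with the highest average log2 CPM were Hspa9, the matrix chaperone of the import motor, with 23.9 CPM per kb, and the inner-membrane proteases Yme1l1 and Afg3l2, with 12.4 and 9.16, whereas per kilobase the chaperonin genes Hspe1 (38.0) and Hspd1 (24.5) were the highest. Of 33 genes of mitochondrial transcription and RNA processing, 4 were listed as lower and 0 as higher. These were the RNA-degrading enzymes Pnpt1 (13.8 CPM per kb), Rexo2 (13.1) and Pde12 (4.85), with Grsf1, an RNA-binding protein of mitochondrial RNA granules. Polrmt, the mitochondrial RNA polymerase, and Tfam, its DNA-packaging partner, were not listed. Of 16 genes of genome maintenance and dynamics, 5 were listed as lower and 0 as higher (median 11.3 CPM per kb). The 3 with the highest average log2 CPM were the fusion protein Mfn2, the transcription factor Gabpa and the fission protein Dnm1l, with 13.5, 11.3 and 10.7 CPM per kb, whereas per kilobase the fission protein Fis1 was the highest (19.4). Of 78 mitochondrial ribosomal protein genes, 1 was listed, Mrpl32, as lower, with 6.82 CPM per kb. A gene had to pass an average log2 CPM of 5 to be listed, so a missing gene may have been too low in level or may have missed the other limit.

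**Figure D4:**
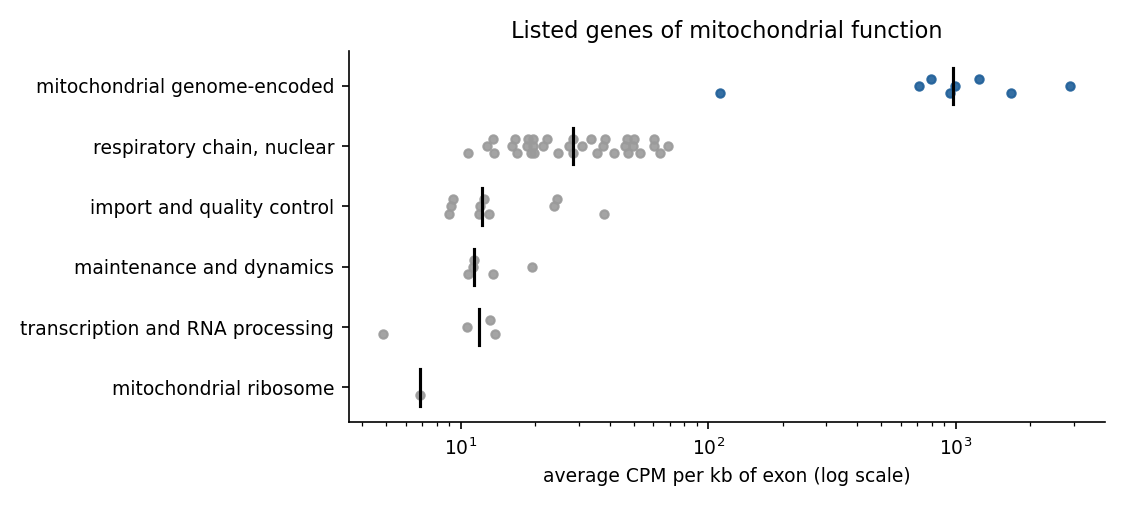
Average CPM per kb of exon (horizontal axis, log scale) of each listed gene in 6 groups of mitochondrial function, with 1 point per gene and the group median as a black line; vertical offsets carry no value. The mitochondrial genome-encoded mRNAs (blue) range from 111 to 2905, and the nuclear genes (grey) lie at or below 68.9.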

How the data were processed

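RNA-seq of tdTomato- and tdTomato+ lung ILC2s is described. According to the study's methods, the authors used FASTP for read quality, STAR with the Ensembl GRCm39 genome for alignment, featureCounts with the Ensembl annotation for counts per gene, and edgeR for the comparison, whereas the submitters' processing notes name mm10. Tool versions, normalization, strand setting and handling of multiply matching reads are not given in the sources used here. The authors deposited 2 tables of genes past their limits. The log2 values used are the average log2 CPM that the authors deposited, pooled over their libraries. The tables also hold log2 fold changes, likelihood ratios, p-values and FDRs of the authors' own comparison, which were neither used nor printed. The number of unused columns of per-sample values is 0. The design had provided for limma on values of single libraries, which the tables do not hold, so no test was made. Depth is unknown, and no interval is given.

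CPM was taken as 2 to the power of the average log2 CPM. Genes were matched by Ensembl identifier to GENCODE M21 on GRCm38. Exact nuclear copies of the mitochondrial chromosome were found on both strands of 65 nuclear sequences of GRCm38.p6 by joining shared words of 31 bases. Copies with mismatches within a window were not counted. On simulated sequence, 4 of 4 implanted copies were recovered and 0 windows were wrong. Python 3.11.15, numpy 2.4.6, numba 0.67.0 and pandas 2.3.3 were used.

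Named are all 13 mitochondrial protein-coding genes, both rRNA genes, the markers and, of each nuclear list, the 3 listed genes with the highest average log2 CPM. Grsf1, Polrmt, Tfam, Hspe1, Hspd1 and Fis1 were named after their values were seen. 1 further set of markers fixed with the design is not reported here. The members and lists were chosen with earlier results of these data known.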

Additional observations from a re-analysis of the deposited data

How the results depend on the processing

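No paired analysis was possible because no value of a single library is given, and for the same reason no library could be left out. The members made up 2.24% of the summed level of all listed genes, 3.06% of that of the lower genes, 0.883% without the 10 listed genes of highest level (of which mt-Co1, mt-Cytb and mt-Nd5 are members) and 2.54% of that of genes with an average log2 CPM of at least 6, a limit that mt-Nd3 misses. The ratio of the highest to the lowest member per kilobase, 26.1, was 9.26 over bases without an exact nuclear copy and 116 with no division by length. It did not change when bases shared with a neighbouring gene were left out. Chosen after seeing the data, it was 4.09 without mt-Nd3, and 5.48 without mt-Nd3 over bases without an exact nuclear copy. The median share of windows with an exact nuclear copy was 1.45% for the members, 7.84% with windows of 50 bases, 0% with windows of 150 bases and 1.60% with windows wholly inside the gene, the last chosen after seeing the data. For the genes not listed it was 100% in each of these settings. The levels carry no error, so the depth behind them and the precision of their order are unknown.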
